A study of Mus musculus with 8 samples.

Results

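The genes of protein kinase A, the main intracellular target of cAMP, were examined in maps of histone H3 acetylated at lysine 27 (H3K27ac) in mpkCCD cells. They were chosen from a list of its catalytic subunits (Prkaca, Prkacb), regulatory subunits (Prkar1a, Prkar1b, Prkar2a, Prkar2b) and inhibitor proteins (Pkia, Pkib, Pkig). The list holds 9 of the 21887 protein-coding genes of the RefSeq table, all 9 were found, and it was drawn up with earlier results of these data known. For each gene the window was its span plus 10 kb on either side, and the bases covered by peaks in that window are called covered bases. Since the genes were picked with the dDAVP and vehicle values in view, those values are given as a description and no test was made on them.

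The mpkCCD line is a mouse cortical collecting duct epithelium, here clone 11, so that a single clone stands for the tissue. Confluent cells on permeable supports were kept 24 h without serum or hormones, then 24 h with 0.1 nM dDAVP, a vasopressin analogue selective for the V2 receptor, or with its vehicle. Each of 2 experiments has 1 dDAVP and 1 vehicle library precipitated with an antibody against acetylated lysine 27, and an input library for each. The labels number the experiments but do not say whether they were separate cultures, so the spread between them may be partly technical.

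Protein kinase A is held inactive as a complex of catalytic and regulatory subunits. cAMP binds the regulatory subunits and frees the catalytic ones, which phosphorylate targets in the cytoplasm and nucleus. Type I regulatory subunits are found largely in the cytosol, whereas type II subunits are mostly held at membranes and organelles by A-kinase anchoring proteins. The protein kinase inhibitors bind free catalytic subunits through a pseudosubstrate stretch and help to export them from the nucleus. In the collecting duct, vasopressin acts through the V2 receptor and cAMP on water channel trafficking and on transcription of the aquaporin-2 gene. H3K27ac marks active promoters and enhancers.

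The peak lists held 37235 and 39745 peaks for dDAVP and vehicle in the first experiment, and 20124 and 29597 in the second. dDAVP lists covered 0.951 and 0.590 times as many bases as the vehicle lists of experiments 1 and 2. A shorter dDAVP list in each experiment thus moves with every comparison below, and its part in them was not tested. Immunoprecipitated libraries had between 27923780 and 32705755 tags kept, and the lists give no read counts per region. Principal cell markers had a peak at a start in all 4 lists for 7 of 8 genes, against 1 of 5 for intercalated cells and 1 of 5 for proximal tubule. That count was 0 of 4 for the thick limb and distal tubule and 0 of 6 for fibroblasts, leukocytes and endothelium.

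Promoters are shown first, because peaks at them were the feature most of these genes shared. Sequences are RefSeq promoters on mm10 (GRCm38.p6), from 250 bases before to 50 bases after an annotated start, 5′ to 3′ on the gene's strand. Of the 9 genes, 8 had entries, with 24 annotated starts in all, and Pkia had none. Capitals mark matches on either strand to the cAMP response element TGACGTCA or to its core TGACG. They also mark the promoter motif CCAAT, likewise on either strand, and the TATA box TATAAA, whose matches here are on the opposite strand and so are printed as TTTATA. The core lies within the full element, so each full match also counts as a core match.

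Prkar1a is shown for the only full cAMP response element found in these promoters, and Prkaca for 2 cores beside 4 CCAAT boxes.
Prkar1a, chr11:109650699-109650998, + strand: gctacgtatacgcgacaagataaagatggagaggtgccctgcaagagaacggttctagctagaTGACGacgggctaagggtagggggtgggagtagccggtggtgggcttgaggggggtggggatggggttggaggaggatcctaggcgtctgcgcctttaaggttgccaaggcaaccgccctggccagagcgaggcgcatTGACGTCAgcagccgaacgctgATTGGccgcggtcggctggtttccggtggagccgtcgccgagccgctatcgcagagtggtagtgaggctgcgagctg
Prkaca, chr8:83972728-83973027, + strand: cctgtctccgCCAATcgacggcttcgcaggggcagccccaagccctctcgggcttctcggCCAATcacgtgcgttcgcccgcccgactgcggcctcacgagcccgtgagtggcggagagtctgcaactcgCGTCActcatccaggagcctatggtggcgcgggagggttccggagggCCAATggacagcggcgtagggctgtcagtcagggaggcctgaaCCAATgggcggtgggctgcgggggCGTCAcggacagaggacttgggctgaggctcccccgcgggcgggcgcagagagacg

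The next pair sets Prkacb starts side by side, one rich in CpG and called in every list, the other called in 3 lists. The latter has TATA box letters on the opposite strand only, which do not by themselves make it a TATA promoter.
Prkacb first start, chr3:146812897-146813196, - strand: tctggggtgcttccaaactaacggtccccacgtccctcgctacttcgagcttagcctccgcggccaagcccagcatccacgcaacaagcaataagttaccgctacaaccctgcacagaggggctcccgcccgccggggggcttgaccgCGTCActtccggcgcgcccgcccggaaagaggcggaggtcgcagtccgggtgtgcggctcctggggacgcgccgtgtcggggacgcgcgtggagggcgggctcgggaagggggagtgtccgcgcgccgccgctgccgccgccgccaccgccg
Prkacb internal start, chr3:146781367-146781666, - strand: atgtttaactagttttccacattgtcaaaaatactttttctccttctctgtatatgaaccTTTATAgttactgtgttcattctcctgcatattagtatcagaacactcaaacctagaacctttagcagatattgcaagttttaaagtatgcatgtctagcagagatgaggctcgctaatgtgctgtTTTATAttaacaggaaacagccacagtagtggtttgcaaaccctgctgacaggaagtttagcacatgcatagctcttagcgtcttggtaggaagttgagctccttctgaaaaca

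Both Prkar1b promoters below are rich in CpG, but peaks were called only at the first, and Pkib is shown for the start called in a single list.
Prkar1b called start, chr5:139149952-139150251, - strand: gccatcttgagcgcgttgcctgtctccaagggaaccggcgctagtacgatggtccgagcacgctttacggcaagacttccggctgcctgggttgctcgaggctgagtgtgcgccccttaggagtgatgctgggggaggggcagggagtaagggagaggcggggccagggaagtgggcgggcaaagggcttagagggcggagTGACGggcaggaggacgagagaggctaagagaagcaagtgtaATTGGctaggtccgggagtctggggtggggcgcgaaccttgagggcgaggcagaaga
Prkar1b uncalled start, chr5:139129703-139130002, - strand: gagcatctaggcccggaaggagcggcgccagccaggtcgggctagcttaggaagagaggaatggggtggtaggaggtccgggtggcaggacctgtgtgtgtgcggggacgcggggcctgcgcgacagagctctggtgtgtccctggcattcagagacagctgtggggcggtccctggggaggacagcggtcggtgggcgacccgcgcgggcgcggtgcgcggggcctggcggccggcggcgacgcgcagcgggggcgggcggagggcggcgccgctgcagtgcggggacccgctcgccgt
Pkib, chr10:57645619-57645918, + strand: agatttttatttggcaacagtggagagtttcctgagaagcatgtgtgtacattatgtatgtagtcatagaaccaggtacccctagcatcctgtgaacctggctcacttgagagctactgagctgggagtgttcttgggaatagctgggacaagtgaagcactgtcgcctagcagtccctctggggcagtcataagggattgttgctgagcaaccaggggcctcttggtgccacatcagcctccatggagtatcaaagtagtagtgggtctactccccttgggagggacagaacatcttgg

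The full cAMP response element began at position -49 relative to the Prkar1a start at 109650949, and the same copy fell at position 38 of an overlapping promoter. It was held by 2 of the 24 promoters, both of Prkar1a, beside 2.23% of 21263 promoters of the same length and 3.58% of those with a start called in all 4 lists. Its core was held by 8 of the 24 (23.6% of all promoters and 34.5% of the called ones), in 6 genes, including positions -120 and -6 of Prkaca, -102 of Prkacb, -4 of Prkar2a and -49 of Prkar1b. CCAAT boxes were held by 6 of the 24, in 4 genes (38.2% and 38.6%), with Prkaca matches at positions -240, -190, -73 and -30. The GC box GGGCGG, searched on both strands and left in lower case, was held by 13 of the 24, in 7 genes (46.2% and 67.7%). The TATA box was found only in the internal Prkacb promoter, at positions -190 and -64 (12.6% and 6.05%). A match describes letters in the window only.

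A start was counted as called when a peak lay within 1 kb of it. Of the 9 genes, 8 had a start, or for Pkia a gene end, called in all 4 lists, against 45.9% of all protein-coding genes, and Pkib was the exception. A call at any of its starts was enough for a gene. These genes have more annotated starts per gene, 24 over 8 genes beside 21263 over 17492, which favours them in this comparison. Among the 24 annotated starts, 14 were called in all 4 lists and 5 in none, beside 9790 and 9532 of all 21263 starts. Starts that lie close together, as in Prkar1a, share a peak and are not separate calls. The ratio of observed to expected CpG in the promoters, which is low where methylation has depleted CpG, had a median of 0.869 at the starts called in all lists (0.498 to 1.06). At the remaining starts the median was 0.185 (0.0539 to 0.957). Over all 21263 promoters the medians were 0.802 for the starts called in all 4 lists and 0.242 for those called in none. The highest ratio at an uncalled start, 0.957, belonged to the Prkar1b start at 139129752, printed above, where 75.0% of bases are G or C.

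All of these genes except Pkib were covered in all 4 lists, 8 of 9 against 57.4% of protein-coding genes. Covered bases were lower with dDAVP in both experiments for 5 of the 8 (Prkaca, Prkar1a, Prkar1b, Prkar2a, Pkia), where 51.4% of all such genes were. None was higher in both (2.84% of genes), though Prkacb and Prkar2b were as a share of each list's covered bases, and 3 (Prkacb, Prkar2b, Pkig) were higher in experiment 1 and lower in experiment 2 (43.7% of genes). The median dDAVP to vehicle ratio was 0.859 and 0.665 in experiments 1 and 2, beside 0.987 and 0.714 over 12558 genes. Prkar1b was the 1 gene of the 9 whose vehicle lists both exceeded both dDAVP lists, as they did for 5.66% of all covered genes.

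**Figure D1:**
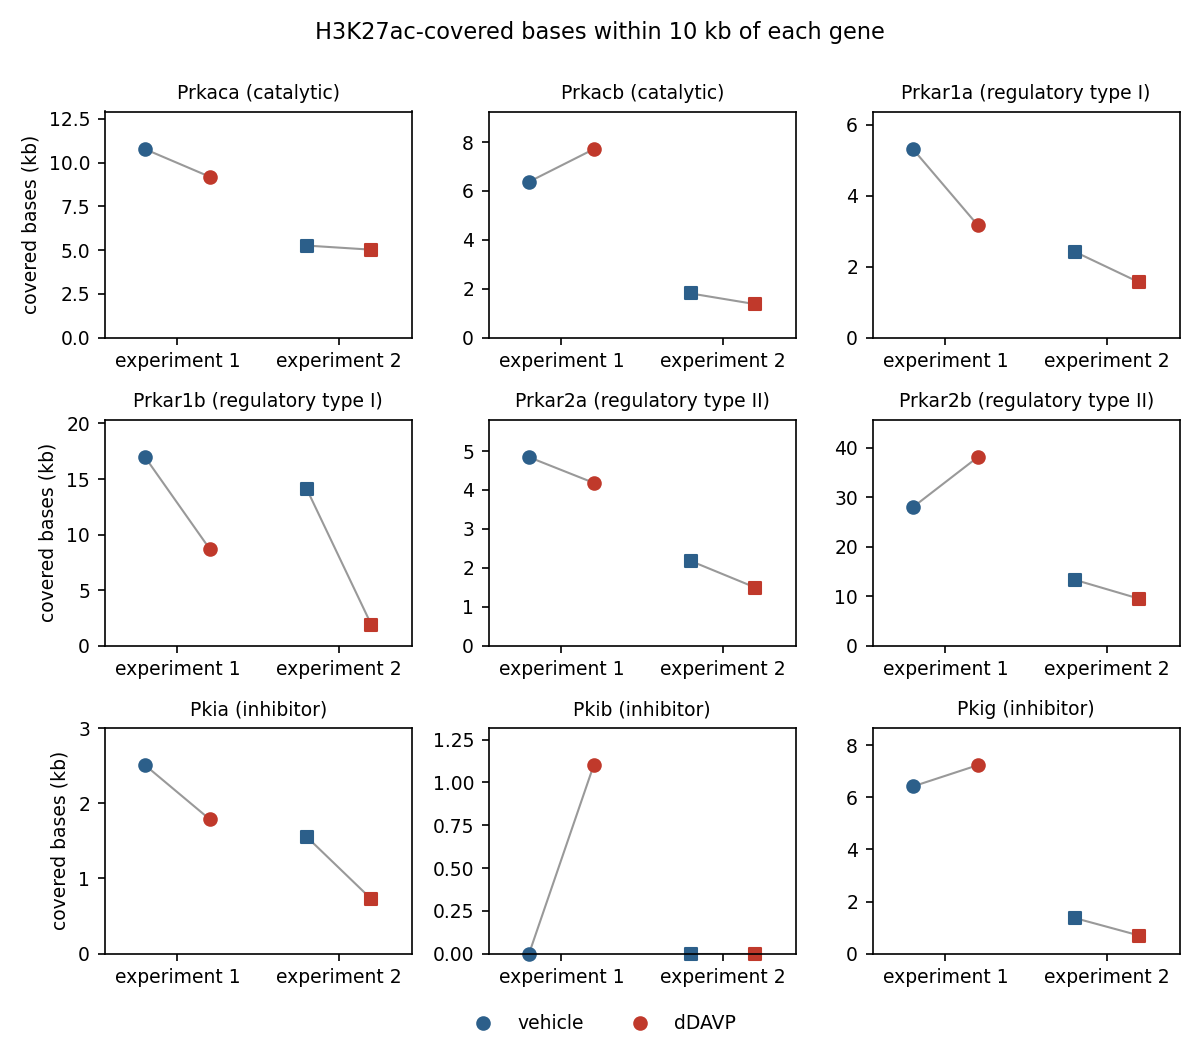
Covered bases (kb, axes from 0) in the window of each gene; each point is 1 peak list, circles are experiment 1, squares experiment 2, blue vehicle and red dDAVP, and lines join lists of an experiment. Prkar1b has both vehicle points (16963 and 14101 bases) above both dDAVP points (8702 and 1879), while Prkar2b, Prkacb and Pkig slope up in experiment 1 and down in experiment 2.

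Prkaca encodes the catalytic subunit alpha (chr8:83972978-83996444, + strand). Its window held 9198 covered bases with dDAVP and 10773 with vehicle in the first experiment, and 5029 and 5264 in the second. Ratios were 0.854 and 0.955, and the vehicle minus dDAVP difference was 905 ± 948 bases (SD, n = 2 experiments), a spread as large as the difference. A peak at its start was called in every list, 2569 and 3171 bases wide in experiment 1 and 1084 and 933 in experiment 2, so its width went down with dDAVP in one experiment and up in the other. Most of the remaining coverage lay beyond the gene. A region over its far end (chr8:83996098-84000125) also overlaps Samd1 and was called in all 4 lists, as was one overlapping 1700067K01Rik in the flank, and peaks there cannot be assigned to 1 gene. Within the gene span alone the values were 1493 and 2305 bases in experiment 1 and 243 and 457 in experiment 2, ratios of 0.648 and 0.532. The direction did not hold when lists were trimmed to equal covered bases, which gave ratios of 0.995 and 1.16.

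Prkacb encodes the catalytic subunit beta (chr3:146729579-146812946, - strand). Covered bases were 7708 with dDAVP and 6376 with vehicle in the first experiment, and 1370 and 1808 in the second, so the direction turned between experiments (ratios 1.21 and 0.758). The peak at its first start, which also overlaps the long non-coding RNA gene LOC115486180, was called in every list. Its fold enrichment over local background, the authors' value per peak, was 7.64 and 8.23 for dDAVP and vehicle in experiment 1, above 93.1% and 94.1% of the peaks of those lists. In experiment 2 it was 5.28 and 9.55, above 76.0% and 95.6% of the peaks. Folds are compared here only by their place within a list. At the internal start at 146781416 the peak was 3871 bases wide with dDAVP and 2011 with vehicle in experiment 1, 366 with vehicle in experiment 2, and not called with dDAVP in experiment 2. Coverage at the internal start thus varied from list to list, while the first start stayed between 1370 and 1919 bases. A further start at 146770238 was called in no list. As a share of each list's covered bases the Prkacb ratios were 1.27 and 1.28, and with lists trimmed to equal covered bases 0.908 and 0.950.

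Prkar1a encodes the type I alpha regulatory subunit (chr11:109649023-109669663, + strand). Its window held 3174 and 5314 covered bases with dDAVP and vehicle in the first experiment, and 1558 and 2424 in the second (ratios 0.597 and 0.643). The difference was 1503 ± 901 bases (SD, n = 2), lower with dDAVP each time, but the vehicle list of experiment 2 lay below the dDAVP list of experiment 1. Prkar1a and Prkar1b were the 2 genes at least 1.5 times lower with dDAVP in both experiments, where 3.81% of all genes were. For Prkar1a this size rests on the flank, since the gene span alone gave 0.638 and 0.723. As a share of each list's covered bases the ratios were 0.628 and 1.09, so the direction turned in experiment 2, and with lists trimmed to equal covered bases both lists of experiment 1 were at 0. Its coverage had a simple layout, a single region over the cluster of starts (2164, 3393, 1558 and 2155 bases in the order dDAVP 1, vehicle 1, dDAVP 2, vehicle 2) and 1 upstream. The upstream region, at chr11:109640916-109642836, overlaps the long non-coding RNA gene Gm11685 and covered 1010 and 1921 bases in experiment 1 and 0 and 269 in experiment 2. The start peak that holds the printed cAMP response element had fold values of 5.61 and 5.65 in experiment 1, above 81.9% and 80.1% of the peaks of those lists. In experiment 2 the values were 7.12 and 7.24, above 92.0% and 87.5% of the peaks. Its place within the list was thus slightly higher with dDAVP in both experiments, although the fold was slightly lower and fewer bases were covered. A place also depends on the other peaks of a list, so it is not a rise of this peak.

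Prkar1b encodes the type I beta regulatory subunit, best known from brain (chr5:139017304-139150703, - strand). Its window held 8702 covered bases with dDAVP and 16963 with vehicle in the first experiment, and 1879 and 14101 in the second. Both dDAVP lists lay below both vehicle lists, with ratios of 0.513 and 0.133, and the difference was 10242 ± 2801 bases (SD, n = 2). Covered shares of the window were 5.67% and 11.1% in experiment 1 and 1.22% and 9.19% in experiment 2. The vehicle values were close to each other although the vehicle list of experiment 2 covered 56.9 Mb and that of experiment 1 104 Mb. Taking the larger ratio of the pair, 101 of the 12558 genes (0.804%) were as low as Prkar1b or lower. Prkar1b and Pkia were the 2 genes below the ratio of the whole lists in both experiments (16.2% of genes). Relative to those list ratios Prkar1b stood at 0.540 and 0.226, and Pkia at 0.750 and 0.791.

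Most of the difference at Prkar1b lay in the gene body. The start region was called in all 4 lists with widths of 2622 and 2725 bases for dDAVP and vehicle in the first experiment and 1476 and 1707 in the second. This region (chr5:139148880-139151639) also holds the start of Dnaaf5, a gene for assembly of axonemal dynein, and acetylation at these starts cannot be told apart. Peaks lying wholly inside the gene numbered 3 with dDAVP and 7 with vehicle in the first experiment, and 1 and 7 in the second. They covered 5469 and 12892 bases in experiment 1 and 403 and 10929 in experiment 2. Of the 7 genes with any intragenic peak, Prkar1b was the 1 with fewer under dDAVP in both experiments (11.7% of genes with any). Peaks at starts count as intragenic where they lie wholly inside the gene. The intragenic peaks of Prkar1a and Pkib were all of that kind, whereas those of Prkar1b lay away from starts. The starts at 139130477, 139130386 and 139129752, about 20 kb into the gene on the map, were called in no list.

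**Figure D2:**
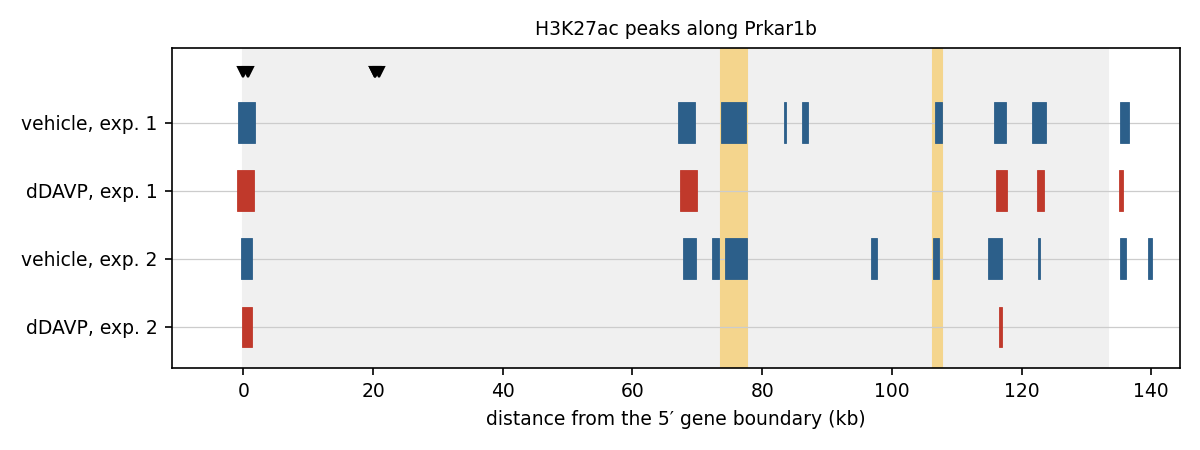
Peaks of each list along Prkar1b, by distance in kb from its 5′ boundary; grey is the gene span, triangles are annotated starts, blue bars vehicle, red bars dDAVP, and yellow marks the vehicle-only regions. The start peak is present in every row, while the vehicle rows carry 7 intragenic peaks each and the dDAVP rows 3 and 1.

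Overlapping peaks of the 4 lists were merged into regions, and 12 lay in the Prkar1b window. Of these, 2 had a peak in the vehicle list of each experiment and in neither dDAVP list. Such vehicle-only regions lay in the windows of 3.31% of all genes and of no other gene here, and 66 genes held 2 or more. The first, chr5:139073024-139077108 within the gene body, was 3946 bases wide in experiment 1 and 3340 in experiment 2. Its fold was 2.86 and 3.41, near the middle of each list, above 42.3% and 47.1% of the peaks. The second, chr5:139043007-139044430, was 965 and 1056 bases wide with a fold of 3.38 and 3.04. Their -log10 q-values were 2.81 and 3.93 for the first and 4.56 and 2.68 for the second, so none would pass a -log10 q of 5. Exons and introns are not given in the annotation used here.

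The other intragenic regions of Prkar1b were shared more widely. The one at chr5:139032924-139035868 was called in all 4 lists, at 1673 and 1895 bases in experiment 1 and 403 and 2179 in experiment 2. The one at chr5:139080704-139083722 had 2676 and 2725 bases in experiment 1, and 0 and 2066 in experiment 2. Nearer the far end of the gene, chr5:139026922-139029014 held 1120 and 2093 bases, then 0 and 309. A further 4 intragenic regions were called in 1 vehicle list only and covered 328 to 1084 bases each. With lists trimmed to equal covered bases, Prkar1b had no coverage in experiment 1 and 1879 bases with dDAVP against 1707 with vehicle in experiment 2, so the direction was lost.

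The genes most like Prkar1b in the covered share of the window over the 4 lists were Iffo2, Cpvl and Dgkd, from 2094 genes with a window of 0.67 to 1.5 times its length. Summed absolute differences in share were 2.74, 4.19 and 4.63 percentage points. Dgkd, which encodes a diacylglycerol kinase, had ratios of 0.604 and 0.334, Cpvl 0.564 and 0.307, and Iffo2 0.587 and 0.214. Each was picked for this likeness, so their ratios are a description.

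Prkar2a encodes the type II alpha regulatory subunit (chr9:108692143-108750444, + strand). Covered bases were 4182 and 4841 with dDAVP and vehicle in the first experiment, and 1493 and 2175 in the second (ratios 0.864 and 0.686). The difference was alike in both experiments, 671 ± 16.3 bases (SD, n = 2), beside levels that differed far more between the experiments. The start peak accounted for 2340, 2108, 1493 and 1768 bases in the order dDAVP 1, vehicle 1, dDAVP 2, vehicle 2. No peak lay wholly inside this gene in any list. An upstream region at chr9:108686600-108689293 held 1842 and 2122 bases in experiment 1, and 0 and 407 in experiment 2. A second upstream region, chr9:108684638-108685248, overlaps Slc25a20 and was called in vehicle of experiment 1 alone (611 bases, fold 2.65). Most of the experiment 1 difference of 659 bases rests on that region. With a fold of at least 3, experiment 1 had 4182 and 4230 bases (ratio 0.989) and experiment 2 had 1493 and 1768 (0.844). The direction did not hold in both experiments when lists were trimmed to equal covered bases (1.11 and 0.844) or as a share of each list's covered bases (0.909 and 1.16). The Prkar2a promoter has a core of the cAMP response element at position -4.

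Prkar2b encodes the type II beta regulatory subunit and had the most covered bases of the 9 genes in every list but vehicle of experiment 2, where Prkar1b had more (chr12:31958450-32061648, - strand). Its window held 38122 with dDAVP and 28029 with vehicle in the first experiment, and 9486 and 13330 in the second. The directions were opposite, with ratios of 1.36 and 0.712. Those values were 30.9% and 22.8% of the window in experiment 1 and 7.70% and 10.8% in experiment 2. The difference, -3125 ± 9855 bases (SD, n = 2), was smaller than its spread. The ratios were above 1 in both experiments as a share of each list's covered bases (1.43 and 1.21) and with lists trimmed to equal covered bases (1.17 and 1.15). Intragenic peaks numbered 10 with dDAVP and 9 with vehicle in the first experiment, and 4 and 6 in the second.

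Of the merged regions, 5 of 11 in the Prkar2b window were called in all lists, beside 2 of 12 for Prkar1b, a difference that was not tested. The start region was 10052 bases wide with dDAVP and 8499 with vehicle in experiment 1, reaching 9.64 kb from the gene boundary with dDAVP. In experiment 2 it broke into separate peaks covering 2682 and 3807 bases. A region deep in the gene body, chr12:31968127-31978664, held 9104 and 3857 bases in experiment 1, and 1329 and 1838 in experiment 2. Nearer the start, chr12:32043056-32046862 held 3305 and 3807 bases, then 1741 and 1821. Another at chr12:31995976-31998425 held 2450 and 1173 bases, then 890 and 950. The flank region chr12:31948301-31952027 covers the start of Hbp1, a transcriptional repressor gene, with 3727 and 3154 bases, then 2844 and 3550. Covered bases of the start region and of those at 31968127, 31995976 and 31948301 were higher with dDAVP in experiment 1 and lower in experiment 2. The same held at chr12:32015111-32020600, with 4559 and 3626 bases, then 0 and 1500. The region at 32043056 was lower with dDAVP in both experiments. The peak at the start itself was wider with dDAVP in both experiments, 10052 and 8499 bases in the first and 1649 and 1596 in the second.

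**Figure D3:**
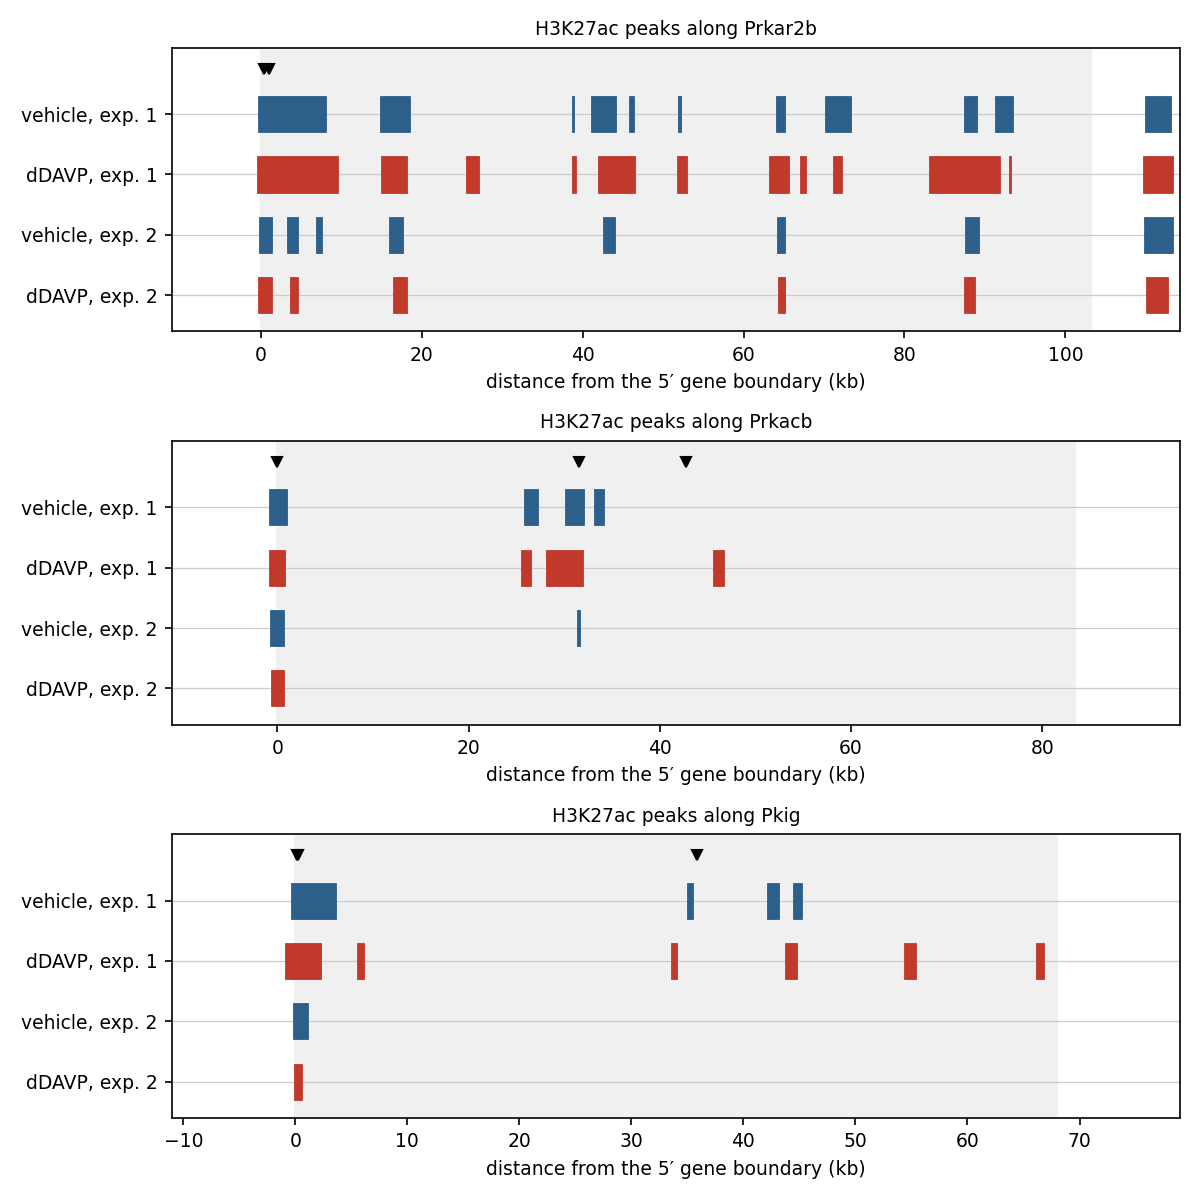
Peaks of each list along Prkar2b, Prkacb and Pkig, by distance in kb from the 5′ boundary of each gene; grey is the gene span, triangles annotated starts, blue bars vehicle and red bars dDAVP. These are the 3 genes with more covered bases with dDAVP in experiment 1 and fewer in experiment 2; only Prkar2b kept intragenic peaks in both lists of experiment 2 (4 with dDAVP and 6 with vehicle).

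Of the inhibitor genes, Pkia (chr3:7366604-7445366) carried a single region. It lies across its lower gene end, chr3:7365273-7367778, and held 1787 and 2506 bases with dDAVP and vehicle in the first experiment, and 725 and 1553 in the second. Ratios were 0.713 and 0.467, and the difference was 774 ± 77.1 bases (SD, n = 2). dDAVP was lower in both experiments, yet the dDAVP list of experiment 1 exceeded the vehicle list of experiment 2. Fold values of this peak were 6.83 and 7.56 in experiment 1, and 3.81 and 7.84 in experiment 2. In experiment 1 it ranked above 89.4% and 91.6% of the peaks of those lists, and in experiment 2 above 47.8% with dDAVP and 90.4% with vehicle. This direction held with lists trimmed to equal covered bases, at the same ratios.

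Pkib had no peak in 3 lists. In dDAVP of experiment 1 alone, a peak of 1101 bases with a fold of 2.40, above 13.9% of that list, reached the start at 57645869 (chr10:57631981-57741112, + strand). No list had a peak at its other annotated start, 57631981. The printed Pkib promoter had the lowest CpG ratio of these promoters, 0.0539.

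Pkig (chr2:163658211-163726158, + strand) had 7232 and 6419 covered bases with dDAVP and vehicle in the first experiment, and 695 and 1368 in the second (ratios 1.13 and 0.508). In experiment 2 the only peak of either list was that at the start. The start peak was 3275 and 4003 bases wide in experiment 1 and 695 and 1368 in experiment 2, narrower with dDAVP each time. In experiment 1 gene body peaks away from starts numbered 5 with dDAVP (3957 bases) and 2 with vehicle (1899 bases). Of these, the dDAVP peak at chr2:163691786-163692264 also overlaps the long non-coding RNA gene Gm16316. A downstream start at 163694037 had a peak of 517 bases within 1 kb in vehicle of experiment 1 and none in the other lists.

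The start peak, or for Pkia the peak at a gene end, was narrower with dDAVP in both experiments for 5 of the 8 genes that had one in all lists (Prkacb, Prkar1a, Prkar1b, Pkia, Pkig). That was so for 47.6% of the 10044 genes with a start called in all 4 lists. Prkar2b was the 1 gene of the 8 with a wider peak in both, as 4.7% of those genes had. Widths ranged from 695 to 10052 bases. A width is set by where the caller ends a region and is not itself a level of acetylation.

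Counted over all windows, the 9 genes held 48 merged regions. Of these, 15 were called in all 4 lists, 2 were vehicle-only and none was dDAVP-only, a class found in the windows of 0.0777% of all genes. Over all 45705 merged regions the same counts were 16537, 1149 and 29. Without dDAVP of experiment 2, the shortest list, 8 regions would be dDAVP-only, 4 of them in Pkig. With all lists kept, 19 were called in a single list, 8 in dDAVP and 8 in vehicle of experiment 1, 0 in dDAVP and 3 in vehicle of experiment 2. The 8 in dDAVP of experiment 1 are the same 8 that would be dDAVP-only. Another 7 were called in every list except dDAVP of experiment 2. Of 11 regions at starts, 7 were called in all lists, and of 28 in gene bodies, 4 were. Counts by place were not made over all regions, so these 2 have no background beside them. Intragenic peaks, including those at starts inside a gene, summed to 23 with dDAVP and 25 with vehicle in the first experiment. In the second they summed to 6 and 15, of which Prkar1b held 1 and 7. The whole lists of that experiment held 20124 and 29597 peaks, and no such sum was made over all genes.

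**Figure D4:**
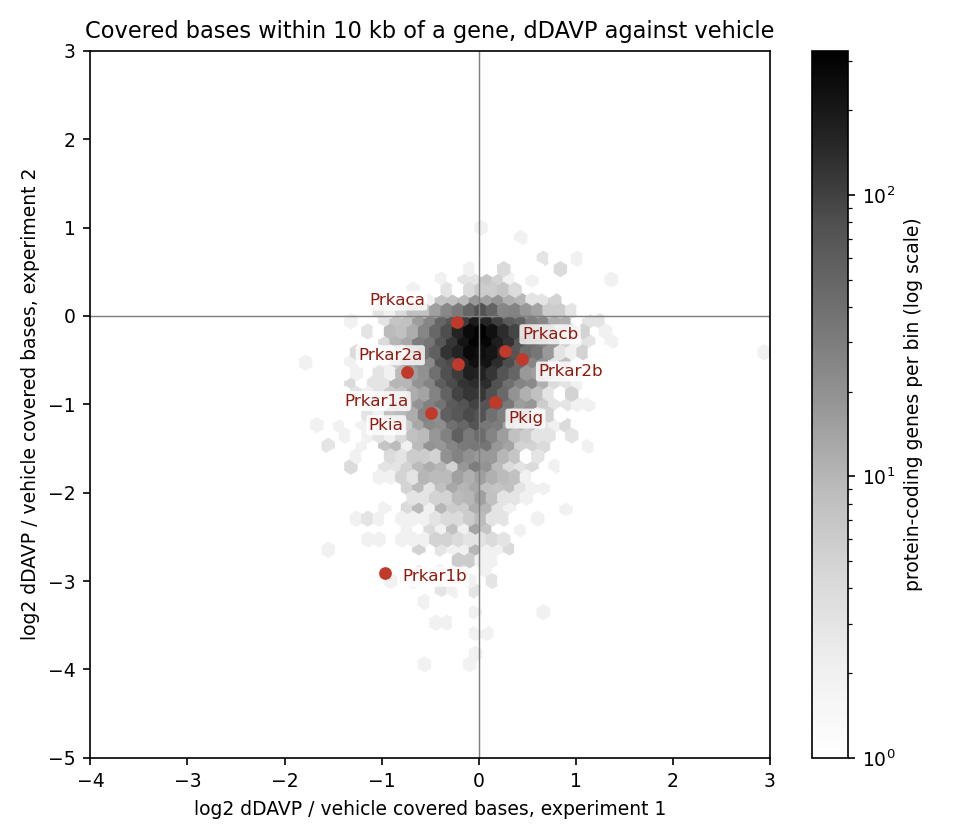
Log2 ratio of covered bases, dDAVP over vehicle, in experiment 1 (x axis) and experiment 2 (y axis); grey hexagons count protein-coding genes covered in all 4 lists (12554 drawn, 4 outside the axes, log grey scale) and red points are the 8 genes of protein kinase A with a ratio. Prkar1b lies at the lower left edge of the cloud, at ratios of 0.513 and 0.133, while Prkacb, Prkar2a, Prkar2b, Prkaca and Pkig lie within its dense part.

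The wider cAMP pathway was described from a list of 41 genes, the V2 receptor, Gs alpha, adenylyl cyclases, phosphodiesterases, cAMP-activated exchange factors, the related catalytic kinase Prkx, anchoring proteins, CREB-family factors and their coactivators, salt-inducible kinases and aquaporin-2. All 41 were found, 33 were covered in all 4 lists (57.4% of all protein-coding genes), and 27 had a start called in all 4 (45.9%). Of the 33, 10 had fewer covered bases with dDAVP in both experiments (51.4% of all genes covered in all lists) and 4 had more (2.84%). The median ratio was 1.07 and 0.742, beside the 0.859 and 0.665 of the kinase A genes and 0.987 and 0.714 over all covered genes. None of the 33 was lower by at least 1.5 times in both experiments (3.81% of all covered genes). Rapgef4, an exchange factor gene, was lower by that much, but had no peak in dDAVP of experiment 2 and so is outside the 33. It had 671 and 2362 covered bases with dDAVP and vehicle in experiment 1, and 0 and 1159 in experiment 2. Pde4b, which encodes a phosphodiesterase that degrades cAMP, was higher by at least 1.5 times in both experiments. It had 8459 and 4332 covered bases in experiment 1, and 5178 and 3350 in experiment 2 (ratios 1.95 and 1.55). Both of its dDAVP lists exceeded both vehicle lists, as in 0.104% of genes. The other 3 that were higher in both experiments, named after their values were seen, were Aqp2, the vasopressin-regulated water channel, and the CREB-family genes Crem and Atf1. Aqp2 had 21693 and 18388 covered bases with dDAVP and vehicle in the first experiment and 14676 and 10594 in the second (ratios 1.18 and 1.39). Crem had ratios of 1.82 and 1.08, and Atf1 1.32 and 1.06.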

How the data were processed

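H3K27ac ChIP-seq of mpkCCD cells was used as 4 deposited peak lists, 1 per immunoprecipitated library, with group and experiment from the sample labels. Per the file headers, the authors called each list with MACS 2.1.1.20160309 in broad mode against its own matching input, with q limits of 0.01 (strong) and 0.1 (broad), 50 bp tags, at most 1 tag per position and the larger data set scaled to the smaller. BWA, SAMtools and mm10 are named in the submitters' processing notes. The deposited pileup is a signal of tag coverage per peak, the fold enrichment is the authors' ratio to local background, and the −log10 p-value and −log10 q-value columns had lost their names in the deposited files, where order and values identify them. Peaks in both experiment 2 lists have names with the number 3. The lists were attached to the input records, and their headers give the immunoprecipitated library.

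Inputs had 30753752 to 38291361 tags kept. Only peaks on 19 autosomes, X and Y entered, which dropped 22, 11, 5 and 12 peaks (dDAVP 1, vehicle 1, dDAVP 2, vehicle 2). Covered bases, calls within 1 kb of a start (RefSeq promoter table, 17492 genes with a start, otherwise either gene end) and merged regions (overlap of at least 1 bp) were computed with Python 3.11.15, numpy 2.4.6 and pandas 2.3.3, and figures with matplotlib 3.10.9. Scripts were tested on simulated data. Lists were compared within an experiment, paired by the experiment number in the sample titles. No p-value was computed, since 2 lists per treatment allow no useful test and the contrast had been used to choose the genes. All 9 genes are named, pathway genes where both experiments differed at least 1.5 times in 1 direction, and the 3 genes nearest to Prkar1b in covered share. Aqp2, Crem and Atf1 fall outside that rule and were named after their values were seen, as was Prkx to complete the list's description. Members and lists were chosen with earlier results of these data known. Alternatives were other windows, stricter peak limits, lists of equal length or equal covered bases, shares of a list, and leaving out lists. No protein or genome sequence was used here.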

Additional observations from a re-analysis of the deposited data

How the results depend on the processing

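Of 8 genes covered in all lists, 5 had fewer covered bases with dDAVP in both experiments, and 5 or 6 did with a 5 kb flank, no flank, a −log10 q of at least 5 (of 7 genes), a fold of at least 3, and lists of equal peak number over all lists or within an experiment. The count was 2 with lists of equal covered bases (5 genes left in all lists) and 2 as a share of each list's covered bases. Leaving out an experiment gave 5 to 8. With no replicate block, that is, without pairing by experiment, it was 5. The mean log2 ratio of Prkaca turned to 0.10 at equal covered bases and 0.27 as a share, and that of Prkar2a to 0.040 as a share. As a share those of Prkacb (0.35), Prkar2b (0.39) and Pkig (0.015) were above 0 too, while Prkar1a, Prkar1b and Pkia stayed below 0. Prkacb and Prkar2b were near 0 in the main setting (-0.063 and -0.024) and changed sign in other settings as well. The start count stayed between 6 and 8 of 9 genes in every setting run.

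Genes with fewer intragenic peaks in both experiments numbered 1, against 2 by peak midpoint, 0 at a −log10 q of at least 5, and 2 to 3 without an experiment. Vehicle-only regions numbered 2, against 0 at that q limit, 0 at equal covered bases (a setting added after the data were seen), and 2 to 10 without 1 list. dDAVP-only regions numbered 0, and 8 without dDAVP of experiment 2 (Pkig 4, Prkar2b 2, Prkacb 1, Pkib 1). At that q limit Prkar1b had 3742 covered bases with dDAVP and 4620 with vehicle in the first experiment, and 0 and 1707 in the second. Causes were not tested, and stricter limits also leave fewer peaks to compare. Lists allow no reading below the peak limit.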
